A study of Caenorhabditis elegans with 2 samples.

Results

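The Wnt ligands of *Caenorhabditis elegans*, proteins that release them and some of the Frizzled receptors that bind them were examined for peaks of ZTF-11. ZTF-11 is a zinc finger protein and a member of the Myt1 family. The set has 10 genes of 19973 protein-coding genes on the nuclear chromosomes. They are *mom-1* and *mig-14*, which act in Wnt secretion, the ligand genes *mom-2*, *lin-44*, *egl-20*, *cwn-1* and *cwn-2*, and the Frizzled genes *mom-5*, *lin-17* and *mig-1*. The genes were listed by name as one pathway, and the pathway was picked on the signal value of a peak inside *mom-1*, so that value is described and supports nothing. Chromatin immunoprecipitation with sequencing was done on whole L4 larvae of both sexes from strain OP236, with *unc-119(ed3)* III in the background and the integrated transgene wgIs236, which carries eGFP-tagged ZTF-11. The design has a single group of 2 biological replicates, with neither another condition nor untagged animals among the lists used, so conditions could not be compared. Whole animals were used, so a peak in few cells and a weak peak in many cells cannot be told apart, and the cell type that gave a peak is not known.

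Wnt proteins are secreted lipid-modified signals. Porcupine attaches the lipid in the endoplasmic reticulum, Wntless carries the protein to the cell surface and the retromer returns Wntless for reuse, and Frizzled receptors on the receiving cell pass the signal on through Dishevelled to β-catenin. In *C. elegans* the pathway is known for orienting asymmetric divisions, for steering migrating neuroblasts along the body and for patterning the vulva.

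Peaks were taken from 5 kb upstream of each gene to its end, by the position of the summit. The authors' relaxed list on the pooled replicates held 30000 peaks of 280 bp. Replicate 1 held 30000 peaks of 390 bp and replicate 2 held 22869 of 196 bp, and the list thresholded on the irreproducible discovery rate (IDR) held 47. The signal value of a peak is the authors' own and its scale is not stated, so it was read only within a list, and ranks are among nuclear peaks of that list with 1 as the strongest. Read numbers are not part of the lists, and the depth behind a peak is unknown. The replicate lists also differ in their stated confidence: no peak of replicate 1 had a −log10 q-value above 0.629, whereas those of replicate 2 ran between 2.58 and 3.57, so each peak below is given with its rank in both.

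Of the 10 Wnt genes, *mom-1* was the only one with a thresholded peak in its window, against 0.481% of all protein-coding genes. A peak among the 1000 strongest of the pooled list lay in the windows of *mom-1* and *cwn-1*, 2 of 10 genes, against 7.79% of all genes. At least 1 pooled peak of any strength lay in 9 of the 10 windows, against 88.4% of all genes, and the gene without one was *mom-2*. A pooled peak overlapped by a peak of each replicate lay in 4 windows, those of *mom-1*, *lin-44*, *cwn-1* and *cwn-2*, against 21.5% of all genes. The set was picked on the *mom-1* peak, so the place of *mom-1* in the counts of strong peaks was fixed in advance. Its place in the count of peaks overlapped in both replicates follows in part from the same choice. Without *mom-1*, no Wnt gene had a thresholded peak and *cwn-1* alone had a peak among the 1000 strongest. The genes with a peak overlapped in both replicates were then *lin-44*, *cwn-1* and *cwn-2*. Counting overlap with replicate 1 alone gave 8 of the 10 genes, against 74.5% of all genes. Overlap with replicate 2 alone gave 4 of the 10, against 42.6%. The Wnt windows had a median length of 8859 bp, against 7027 bp for all protein-coding genes, and the part of length in these shares was not tested. Per length they held 0.297 pooled peaks per kb, against 0.306 in the windows of all genes. The strongest pooled peak had a median signal of 9.37 over the 9 Wnt genes with one, against 9.40 over all genes with one. Without *mom-1* the median over the other 8 was 9.13.

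**Figure D1:**
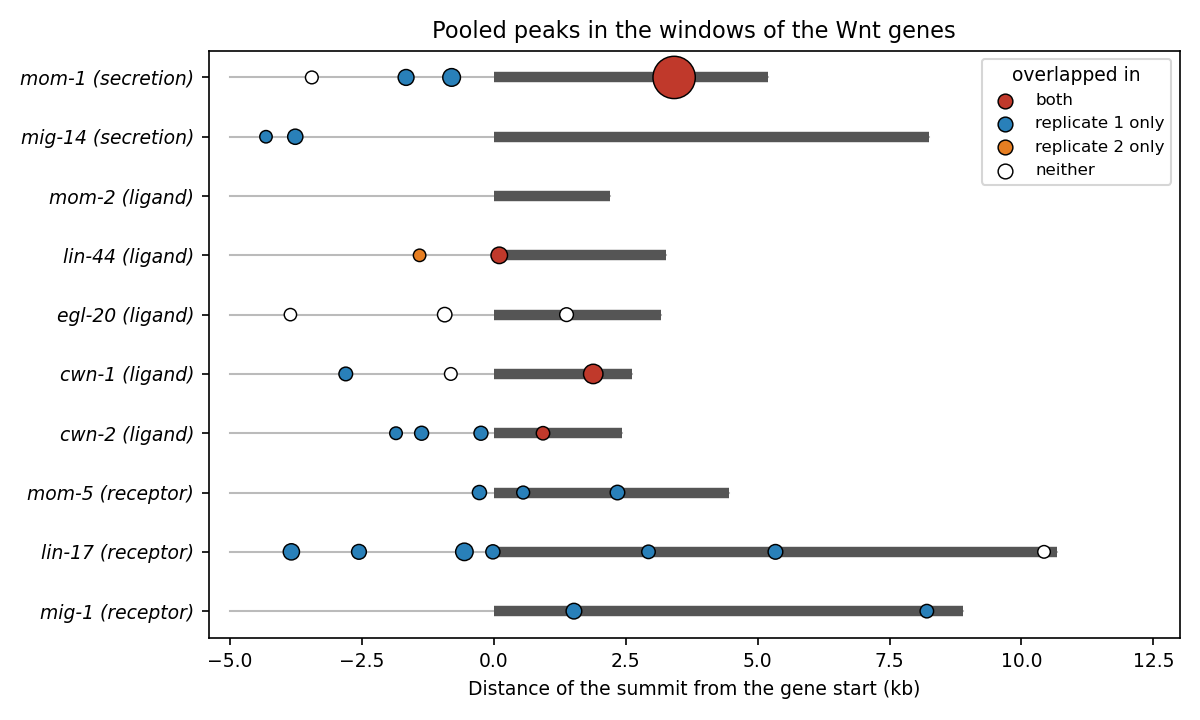
Pooled peaks of the 10 Wnt genes by distance of the summit from the gene start in kb, negative upstream; thick lines are gene bodies, thin lines the 5 kb upstream, the area of a point is proportional to its signal value and its colour says in which replicate lists an overlapping peak was found. The *mom-1* peak with a signal of 68.7 is the one large point, and the other 29 peaks have signals from 5.82 to 14.5.

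*mom-1* encodes Porcupine, the enzyme that attaches the lipid to Wnt proteins. Its gene spans 6293112 to 6298305 on the plus strand of chromosome X (WBGene00003394, ce11) and has 8 exons. The peak at chrX:6296390-6296669 had a pooled signal of 68.7, rank 3 of the 30000 pooled peaks, behind peaks of 77.1 and 70.2 and just ahead of one of 65.1. Its ranks in the replicates were alike. The pooled list is made from both replicates, so high ranks in each follow in part from how the peak was picked. The replicate values only describe the peak. In replicate 1 its signal was 45.2, rank 7, and in replicate 2 it was 25.1, rank 9. Each was far above its own list, at 5.98 times the median signal in replicate 1 and 7.62 times in replicate 2. The summit of replicate 1 fell on the base of the pooled summit, 6296530, and that of replicate 2 lay 5 bp from it.

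The summit lay in intron 7, the last intron of *mom-1*, 37 bp past the end of exon 7. That intron runs from 6296494 to 6297792, 1299 bp, and 101 bp of the peak covered exon 7, which is coding. The summit was 3418 bp downstream of the *mom-1* start and 3412 bp upstream of the start of the next gene, *cest-16*, which encodes a carboxylesterase-family protein. The nearest start is thus that of *cest-16* by a few bp, and with summits given only to the nearest start 0 Wnt genes had a thresholded peak. Whether the peak would appear without the tagged protein cannot be told from these lists. The peak is printed whole, on the plus strand of X in ce11, because it carries the strongest signal of any Wnt gene. Capitals mark the letters GCGCAGGG, which form the core of a motif known from the sites that recruit the dosage compensation complex to the X chromosome in XX animals.

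mom-1 intron peak: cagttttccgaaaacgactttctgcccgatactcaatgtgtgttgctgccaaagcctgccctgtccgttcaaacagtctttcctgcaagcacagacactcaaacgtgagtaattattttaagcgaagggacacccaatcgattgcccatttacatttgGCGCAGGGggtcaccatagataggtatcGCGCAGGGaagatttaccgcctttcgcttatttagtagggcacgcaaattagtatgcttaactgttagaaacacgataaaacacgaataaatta

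The peak held 2 copies of these letters on the plus strand, starting 28 bp apart at 6296548 and 6296576. Their centres lay 21.5 and 49.5 bp from the pooled summit. From the summit of replicate 2 they lay 16.5 and 44.5 bp away. The peak had no copy of AAGTT or of AAAGTTT, both forms of the core known for binding by Myt1 proteins of vertebrates. AAGTT was in 69% of all pooled peaks and AAAGTTT in 20.6%, and 72.3% and 22.9% of 280 bp tiles of X held them. The shares were lower in the thresholded peaks on X, where 10 of 20 held AAGTT (50%) and 1 of 20 held AAAGTTT (5%). A thresholded X peak without these letters is thus not unusual. The search took exact letters on both strands, and every AAAGTTT also holds AAGTT.

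**Figure D2:**
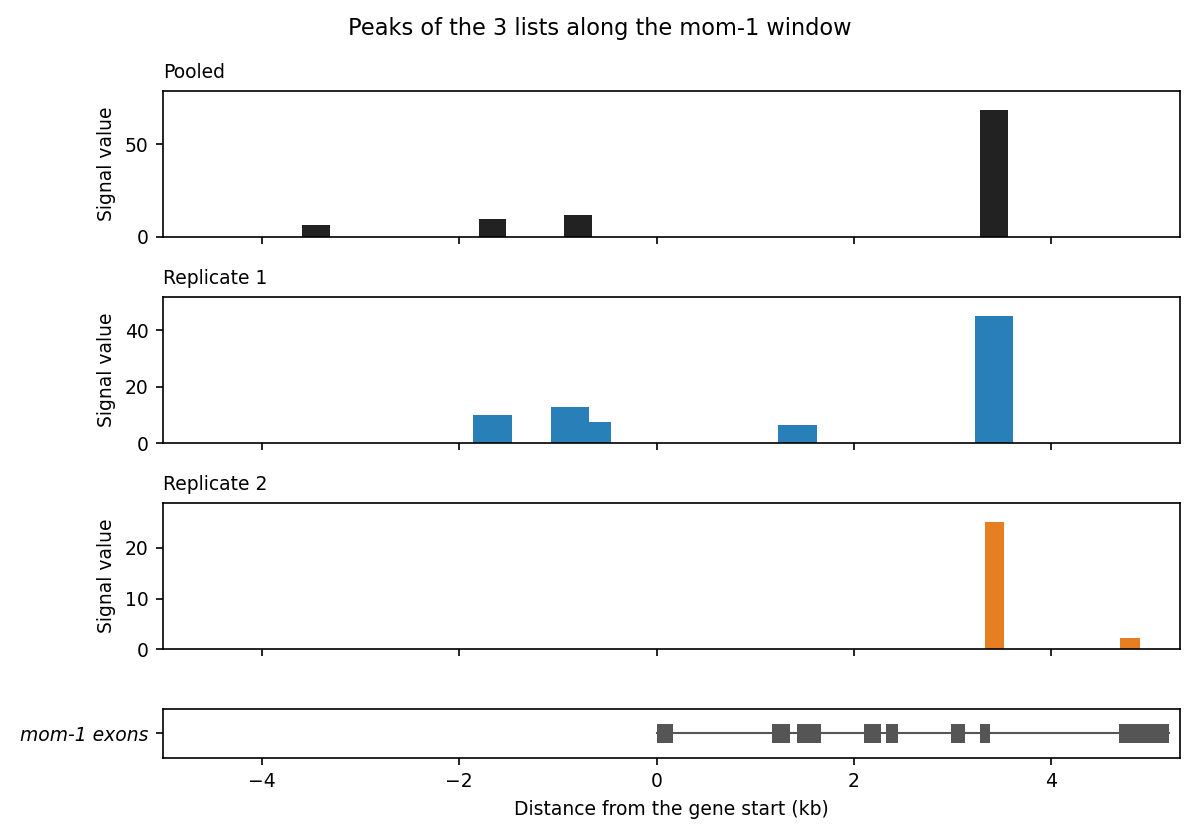
Signal values of the peaks in the *mom-1* window in the pooled, replicate 1 and replicate 2 lists by distance from the gene start in kb, with bar width equal to peak width and the exons drawn below. The peak 3418 bp from the start stands above all others in each list, at 68.7, 45.2 and 25.1; the scales differ between lists.

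GCGCAGGG was rare in the lists as a whole. It lay in 41 of the 30000 pooled peaks (0.137%). On X it lay in 20 of 5680 pooled peaks (0.352%) and in 76 of the 63281 tiles (0.12%). On the autosomes it lay in 0.0863% of pooled peaks and in 0.077% of tiles. Among the thresholded peaks it lay in 12 of the 20 on X (60%) and in 0 of the 27 on the autosomes. The 1000 strongest pooled peaks include all 47 thresholded ones, so their count is not a separate one. Among the 1000, GCGCAGGG lay in 15 of 224 on X (6.7%) and in 0 of 776 on the autosomes. Among the 47 strongest nuclear peaks of replicate 1 taken alone, 12 of 22 on X held it. In replicate 2 alone, 4 of 18 did. Its peaks are 196 bp wide against 390 bp in replicate 1, and the part of width in this difference was not tested. The X chromosome held 81 copies in all, 4.57 per Mb, and the autosomes 233, 2.82 per Mb. Of these, 16 of the X copies and 0 of the autosomal copies lay in a thresholded peak. Whether the letters take part in the ChIP signal was not tested, and a match is no evidence that the dosage compensation complex or ZTF-11 binds there. Within the Wnt windows, both copies found were those of the *mom-1* peak. The other 9 Wnt genes had none in their windows, and neither did 36 further Wnt pathway genes, of which 5 are on X. The share of all protein-coding windows with a copy was not counted. These counts therefore do not set *mom-1* apart from other genes.

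To show which letters beside the core are shared, 30 bases around each copy are printed for every copy in the 10 strongest thresholded peaks, those of *mom-1* first, the rest named by the nearest gene start. All are from ce11, each written along the strand on which GCGCAGGG, in capitals, reads forward.
mom-1 intron, chrX:6296537-6296566, plus strand: atttacatttgGCGCAGGGggtcaccatag
mom-1 intron, chrX:6296565-6296594, plus strand: agataggtatcGCGCAGGGaagatttaccg
near W02H3.3, chrX:11094114-11094143, minus strand: cgttttatatcGCGCAGGGagcttatgcat
near W02H3.3, chrX:11094215-11094244, minus strand: gggaaccattcGCGCAGGGacacctcactg
near nspc-17, chrX:14525889-14525918, minus strand: tattgcctatcGCGCAGGGacagatgtggt
near ins-39, chrX:1345045-1345074, plus strand: caatgtcattcGCGCAGGGcagctgagccc
near F22H10.2, chrX:16682161-16682190, minus strand: aagaaaacatcGCGCAGGGaacatcaaatt
near gtr-1, chrX:806663-806692, plus strand: gtgcgattatcGCGCAGGGgtgtttgttgc
near gtr-1, chrX:806739-806768, plus strand: taaaccgatacGCGCAGGGaaaaaaaaata

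The *mom-1* copy farther from the summit has TC just before the core and A just after it, and the nearer copy has neither. These flanking letters were noticed in the copies and then counted, so the counts only describe them. Of the 16 copies in thresholded X peaks, 9 had both (56.3%), against 4 of the 65 other copies on X (6.15%) and 2 of the 233 on autosomes (0.858%). The copy nearest to a summit lay 3.5 to 110.5 bp away in these 12 X peaks, with a median of 24.5 bp, and the 21.5 bp of *mom-1* is within that range.

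**Figure D3:**
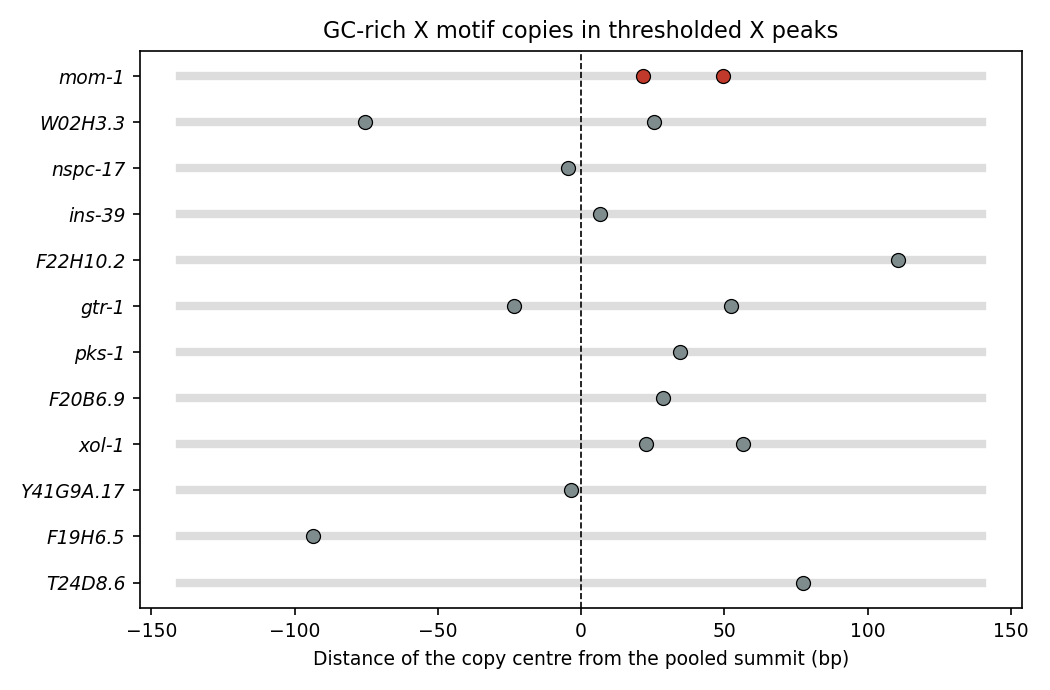
Distance in bp from the pooled summit to the centre of each GCGCAGGG copy in the 12 thresholded X peaks that hold one, positive towards higher coordinates; grey bars are the peaks, named by the gene they lie in or the nearest gene start. The 2 copies of *mom-1*, in red, lie at 21.5 and 49.5 bp, and 4 of the 12 peaks hold 2 copies.

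Of the 47 thresholded peaks, 43 overlapped a peak in both replicate lists, and 2 ranked within the 10 strongest of both. These were the *mom-1* peak and the strongest pooled peak, between genes and nearest to W02H3.3, with rank 3 in replicate 1 and rank 4 in replicate 2. The place of *mom-1* here follows in part from how its peak was picked. By rank over the pooled and both replicate lists, 3 in all, the peaks most like that of *mom-1* were near *rpl-3* on chromosome III (ranks 4, 5 and 22 in the pooled, replicate 1 and replicate 2 lists), near F22H10.2 (7, 8 and 17), near W02H3.3 (1, 3 and 4) and near K02D3.1 (2, 1 and 12), the last 3 on X. The distance was Euclidean, in log10 rank. *rpl-3* encodes a ribosomal protein, and the peaks near *rpl-3* and K02D3.1 held no GCGCAGGG. The last thresholded peak had a signal of 27.23 and the first below the threshold one of 27.14. No Wnt gene other than *mom-1* came near that edge, since the next highest value was 14.5 at *cwn-1*.

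**Figure D4:**
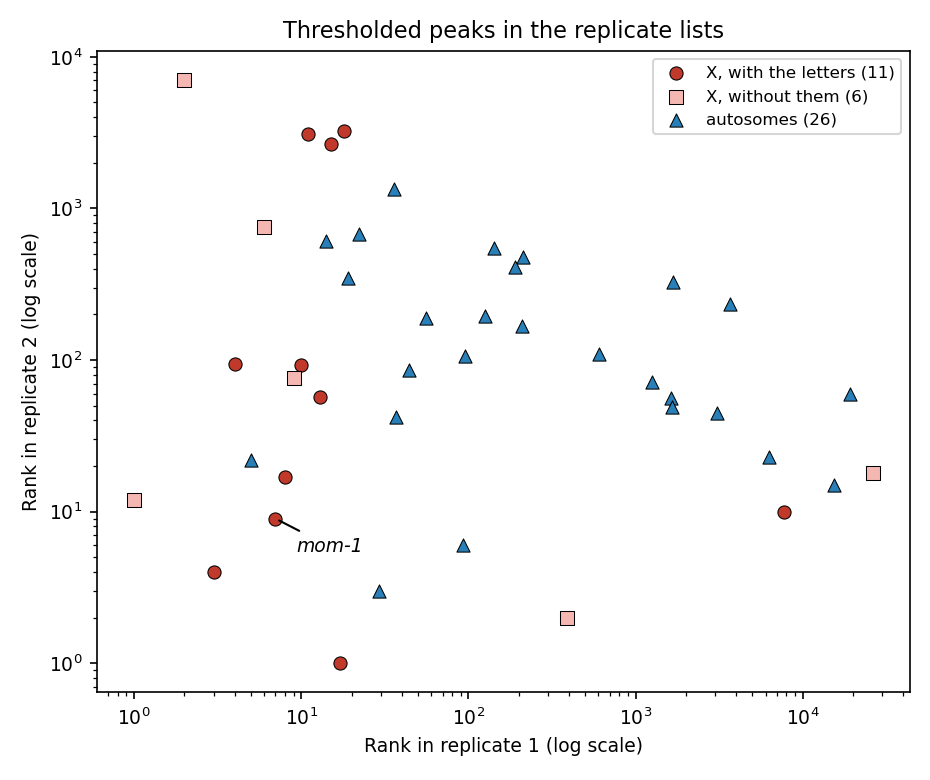
Rank in replicate 2 against rank in replicate 1, both on log scales, for the 43 thresholded peaks with an overlapping peak in each, on X with GCGCAGGG, on X without it and on the autosomes. *mom-1*, at 7 and 9, is in the lower left corner with few others, and 14 peaks rank within the 100 strongest of one replicate and beyond 1000 in the other.

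Upstream of *mom-1* the pooled list held 3 weaker peaks. The one 799 bp upstream had a signal of 12.0, rank 2291, and overlapped the tRNA gene WBGene00023133. The one 1662 bp upstream had a signal of 9.64, rank 6718, and lay in an exon of *lev-9*, the neighbouring gene on the other strand, whose product acts in clustering acetylcholine receptors at muscle. Both overlapped a replicate 1 peak, at ranks 1677 and 5920, and no replicate 2 peak. The weakest, 3448 bp upstream in *lev-9*, had a signal of 6.23 and overlapped none. The promoter side of *mom-1* thus lacked a peak found in both replicates.

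*mig-14* encodes Wntless, the carrier of Wnt proteins to the cell surface. Its gene spans 13741738 to 13749983 on chromosome II. Its 2 pooled peaks lay 3762 and 4317 bp upstream, with signals of 8.88 and 5.93, and 51.2% of all protein-coding genes had a window peak at least as strong as the higher one. Replicate 1 overlapped both, at ranks 20584 and 21003, and replicate 2 neither. Replicate 2 had 3 peaks of its own in the window, the strongest at rank 6104 in an exon of *mig-14*, 2338 bp past the start, where the pooled list had none. The *mig-14* gene body held no pooled peak.

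**Figure D5:**
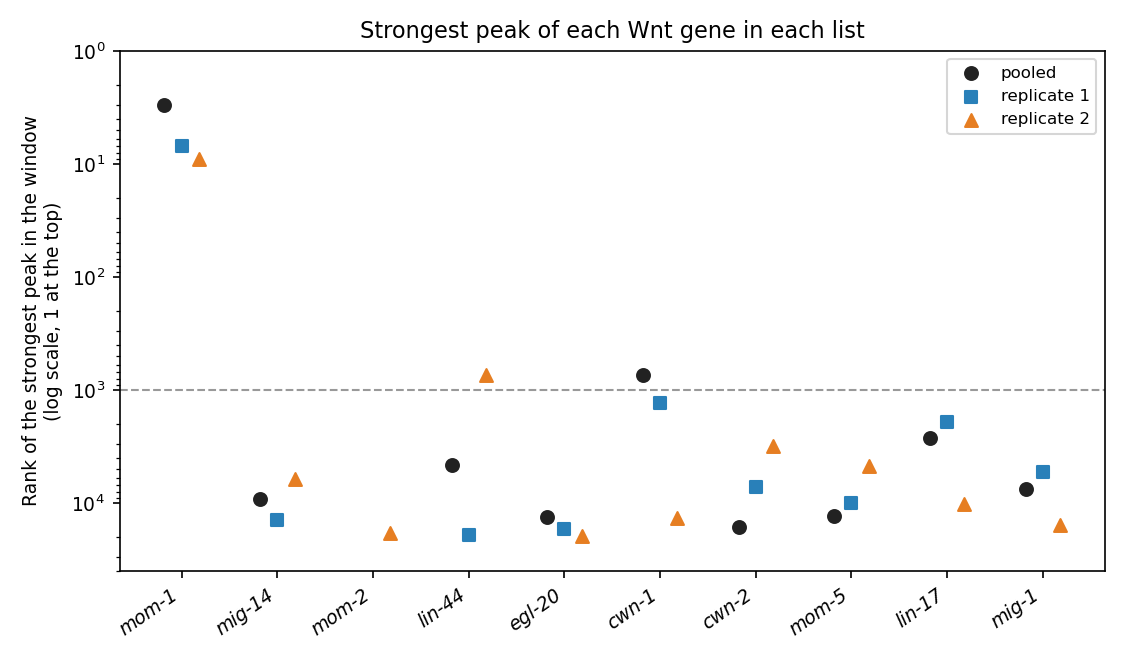
Rank of the strongest peak in the window of each Wnt gene in the pooled, replicate 1 and replicate 2 lists, on a log scale with rank 1 at the top and a dashed line at 1000. *mom-1* ranks 3, 7 and 9; of the others, only *cwn-1* in the pooled list (740) and *lin-44* in replicate 2 (734) stand above the line.

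Among the ligand genes, *cwn-1* held the strongest pooled peak. *cwn-1* encodes a Wnt known to act with other Wnts in cell migration and vulval patterning, and spans 130983 to 133598 on the minus strand of chromosome II. The peak at chrII:131573-131852 had a signal of 14.5, rank 740, and 5.87% of all genes had a window peak at least as strong. Its summit lay in an exon, 1885 bp past the start. In replicate 1 the best overlapping peak had a signal of 13.2, rank 1316, with its summit 103 bp from the pooled one. In replicate 2 it had a signal of 2.88, rank 14439, with its summit 123 bp away, so replicate 2 held only a weak peak there. In neither replicate alone was it among the 1000 strongest. The sequence, on the plus strand of ce11, is shown for comparison with that of *mom-1*, as the only other pooled peak of a Wnt gene among the 1000 strongest.

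cwn-1 exon peak: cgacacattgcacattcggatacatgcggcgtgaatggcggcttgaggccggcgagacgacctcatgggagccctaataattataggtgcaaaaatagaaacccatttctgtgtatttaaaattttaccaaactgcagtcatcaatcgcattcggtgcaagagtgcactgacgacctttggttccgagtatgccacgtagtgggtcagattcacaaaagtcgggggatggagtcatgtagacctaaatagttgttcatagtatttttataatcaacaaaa

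It held no copy of GCGCAGGG, AAGTT or AAAGTTT. The G and C content of the *cwn-1* peak was 43.9%, and that of the *mom-1* peak 44.3%. The other 2 pooled peaks of *cwn-1* lay 814 and 2805 bp upstream with signals of 6.14 and 7.16. Replicate 2 also had a peak at its start, 97 bp upstream, at rank 13456, with no pooled peak over it.

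*lin-44* encodes the Wnt that orients divisions in the tail. Its strongest pooled peak lay at its start, with the summit 104 bp inside the first exon, at chrI:4126020-4126299, and had a signal of 10.5, rank 4631. Here the replicates differed the other way from *cwn-1*. Replicate 2 held the peak with a signal of 8.23, rank 734, with its summit 9 bp from the pooled one. Replicate 1 held it with a signal of 6.88, rank 19108, and its summit 133 bp away. It was the only peak found in both replicates within 1 kb of the start of a Wnt gene, other than that of *cwn-2* below. A second pooled peak lay 1406 bp upstream, in an exon of H31G24.1, with a signal of 5.96, and overlapped a replicate 2 peak at rank 18337.

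*cwn-2* encodes a Wnt with roles in neuron migration and axon placement. It had 4 pooled peaks with signals of 6.07, 7.48, 7.48 and 6.88, and 70.9% of all genes had a window peak at least as strong as its highest. The first 3 lay 1853, 1368 and 243 bp upstream and overlapped replicate 1 peaks, at ranks 14859, 7254 and 10986. The fourth, in an exon 933 bp past the start at chrIV:10068609-10068888, overlapped both replicates. It ranked 27100 in replicate 1 and 3105 in replicate 2, whose summit lay 202 bp away, so the overlap was at the edges of the peaks. The strongest pooled peak of *cwn-2* was the weakest such peak among the 9 genes that had one.

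*egl-20* encodes the Wnt that steers the Q neuroblasts, and *mom-2* the Wnt that polarises the early embryo. *egl-20* had 3 pooled peaks, with signals of 7.98, 7.21 and 5.82 at 930 bp upstream, 1379 bp inside the gene and 3854 bp upstream in the neighbour *catp-6*. None overlapped a peak of either replicate. *mom-2* had no peak in the pooled list or in replicate 1, and 1 in replicate 2 in an exon, at rank 18348 of 22869. A relaxed list holds background by design, so the weak peaks described here may be background. The lack of a peak says that none was called and not that the factor was absent.

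The 3 Frizzled genes of the set held 12 of the 30 pooled peaks, and none of these peaks was found in both replicates. *lin-17*, whose product acts in asymmetric divisions, has the longest window, 15667 bp, and held 7 pooled peaks. Its strongest lay 557 bp upstream with a signal of 11.7, rank 2659, and a replicate 1 rank of 6506. Another in an intron, 5338 bp past the start, had a pooled signal of 8.25 but ranked 1930 in replicate 1. Of the 7 peaks, 6 overlapped a replicate 1 peak and 0 a replicate 2 peak. In *mig-1*, the Frizzled gene known from Q neuroblast migration, the 2 peaks had signals of 9.37 and 6.97, the stronger in an intron 1519 bp past the start. In *mom-5*, the Frizzled gene of the early embryo, the 3 peaks had signals of 8.07, 7.68 and 6.37, and one of them lay 272 bp upstream of the start. All 5 peaks of *mig-1* and *mom-5* overlapped replicate 1 peaks and none a replicate 2 peak. Replicate 2 had 5 peaks of its own in the *mom-5* window, the strongest at rank 4710 in an exon.

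Over the 30 pooled peaks of the set, 23 overlapped a replicate 1 peak (76.7%) and 5 a replicate 2 peak (16.7%). In the whole pooled list the shares were 61.3% and 25.0%. Overlap with both held for 4 peaks (13.3%), against 3001 of all 30000, and with neither for 6 (20%), against 23.7%. Peaks of replicate 1 are 390 bp wide and those of replicate 2 196 bp, and the part of width in these shares was not tested. Of the 30 summits, 12 lay in the body of the Wnt gene, 7 in exons and 5 in introns. Upstream, 13 lay between genes and 5 in the body of another gene. Apart from the *mom-1* intron peak, 21 of 29 peaks held AAGTT (72.4%) and 5 held AAAGTTT (17.2%), against 69% and 20.6% of all pooled peaks.

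Beyond the 10 genes, 36 further genes of the pathway were counted, from retromer and endosomal genes to known targets. None had a thresholded peak in its window. Of the 36, 7 had one of the 1000 strongest pooled peaks (19.4%), against the 7.79% of all genes given above, with a median window of 9676.5 bp against 7027 bp. They were 4 of 16 intracellular components, 2 of 8 other receptors and extracellular modulators, 1 of 7 secretion and retromer genes and 0 of 5 known targets. The highest was at *mig-5*, one of the Dishevelled genes, whose peak lay 181 bp upstream of the start with a signal of 25.3, rank 50. It ranked 215 in replicate 1 and 1320 in replicate 2. Next was *mtm-3*, which encodes a myotubularin-type lipid phosphatase, with a peak 1082 bp upstream of signal 19.3, rank 153. That peak was at rank 269 in replicate 1 and 21 in replicate 2. *mtm-3* was counted with the secretion and retromer genes by listing alone, and a part for it in Wnt secretion was not tested. A second *mtm-3* peak, in an exon, had a signal of 16.2 and no overlap in replicate 2.

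The remaining 5 were weaker. *wrm-1*, a β-catenin gene, had a peak in an exon with a signal of 16.2, rank 358, which ranked 7529 in replicate 1 and 4174 in replicate 2. *prkl-1*, a Prickle gene, had one 1200 bp upstream with a signal of 15.5, found in replicate 1 alone at rank 243. *cam-1*, a Ror receptor gene, had one in an intron with a signal of 14.4, at ranks 13719 and 2545 in replicates 1 and 2. *lit-1*, a Nemo-like kinase gene, and *gsk-3*, the glycogen synthase kinase gene, had signals of 13.93 and 13.86. The *lit-1* peak lay 2754 bp upstream and was found in replicate 1 alone, and the *gsk-3* peak lay 183 bp inside the first exon and ranked 1033 in replicate 1 and 17778 in replicate 2. Thus *mig-5* and *mtm-3* held the peaks nearest in strength to that of *mom-1* among these genes, both below the threshold.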

How the data were processed

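The data are ChIP-seq peak lists of eGFP-tagged ZTF-11 in whole L4 larvae, from a single group whose 2 biological replicates are numbered in the labels. Per the labels, the library size range was 150 to 350, with no unit given. The README texts deposited with them describe relaxed peaks of each replicate and of both together, used as input for IDR, and the thresholded result. Peak caller and aligner: not given in the sources used here. No scale is stated for the deposited signal value. The deposited −log10 of a q-value reached 0.629 in replicate 1, 2.12 in the pooled list and 3.57 in replicate 2, so it selected no peaks. No control alignments were analysed here, and the 4 lists in ce10 were not used here.

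Positions are in ce11, counted from 1. Genes are from Ensembl release 115 (WBcel235) and sequence from the RefSeq genome of that assembly. No peak or gene ran past the end of a chromosome of that sequence. A summit counted for every window that held it, and replicate peaks overlapped a pooled peak at 1 bp or more. The 15 mitochondrial peaks of replicate 1 were left out of ranks. The members and lists were chosen with earlier results of these data known. With 1 group no test was run, and counts stand beside those of all protein-coding genes. Named genes were all members, further pathway genes with a peak among the 1000 strongest, and the 4 thresholded peaks nearest in rank to that of *mom-1*; other genes named were chosen after their values were seen. Alternatives changed the window, the assignment, the number of strongest peaks, the overlap, the replicate used and the motif. Functions were tested on simulated data. Python 3.11.15, numpy 2.4.6, pandas 2.3.3 and matplotlib 3.10.9 were used.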

Additional observations from a re-analysis of the deposited data

How the results depend on the processing

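*mom-1* was counted with a thresholded peak in each alternative, including the 47 strongest nuclear peaks of either replicate alone (1 gene each), except where a summit went only to the gene with the nearest start (0 genes). The set was picked on this peak for its strength, so the count of *mom-1* was largely fixed in advance and is no support. The nearest-start rule left 1 gene with one of the 1000 strongest pooled peaks, against 2. With the 500 strongest 1 of the 10 Wnt genes, *mom-1*, had such a peak, against 4.06% of all protein-coding genes. With the 5000 strongest 4 had one, against 32.8%. Of the 36 further pathway genes, 3 had one of the 500 strongest and 18 one of the 5000 strongest, against 7 with the 1000 strongest. The median window was 9676.5 bp for the 36 genes and 7027 bp for all genes, whose shares are the same 4.06% and 32.8%. With windows from 1 kb upstream, 5 of the 36 had one of the 1000 strongest, and from 10 kb upstream 7. The shares of all genes for these windows are not given here. Without replicate 1 or 2 the counts were 1 to 2 Wnt genes and 6 to 7 further genes, against 7.64% and 7.92% of all genes. Wnt genes with a pooled peak overlapped in both replicates fell to 2 with an overlap of 50% of the pooled peak (12.5% of all genes) and to 1 with the 5000 strongest peaks of each replicate (2.26%), against 4; requiring 1 replicate only gave 4 to 8. The count overlapped in both replicates was 3 with summits given only to the nearest start, and 3 with pooled peaks at or above the median signal. With windows from 10 kb upstream it was 5. The shares of all genes in these settings are not given here. Without replicate 2, *cwn-1* fell to rank 1316. Without replicate 1 the genes were *mom-1* and *lin-44* (rank 734), and the best *cwn-1* peak ranked 13456. For the limits on rank and overlap the shift follows from the rule's construction; for the replicates the cause was not tested.

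In settings chosen after the data were seen, 14 or 13 of the 20 thresholded X peaks held the motif with its first or last letter dropped and 11 held all 8 letters within 100 bp of the summit, against 12. Among the 47 strongest nuclear peaks of replicate 1 alone the count was 12, and of replicate 2 alone 4. The peaks of replicate 2 are narrower, and the part of width in this was not tested. No paired analysis was possible because there is 1 group. Depth is unknown, so weak peaks cannot be graded by it.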
